A study of Mus musculus with 6 samples.

Results

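Among 6 arrays of mouse fracture callus, 2 carried much less signal from blood-forming cells than the other 4, and this contrast is described here gene by gene. The division was chosen by measured values: an array was called marrow-poor where S100a8, a calcium-binding protein that fills the cytosol of neutrophils, and Slc4a1, the anion exchanger of the red cell membrane, both lay under a set log2 level. That rule took 2 of 6 arrays, 1 from each genotype, and left 4 marrow-rich arrays. The labels name no marrow classes. S100a8 was 10.16 and 9.25 on the marrow-poor arrays and 13.01 to 13.25 on the marrow-rich ones, and Slc4a1 was 3.06 and 4.89 against 10.03 to 10.72, and the set levels fell inside these gaps, at 7 for Slc4a1. Both genes were left out of all counts below.

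The animals were mice of a mixed C57BL6J and 129SV background, aged 12 weeks, whose tibia was cut, fixed with an intramedullary rod and left for 14 days before the callus was taken. Callus is the repair tissue that bridges a broken bone. One group was Cyp24a1 (-/-), lacking the enzyme that inactivates the hormonal form of vitamin D, and the control group was Cyp24a1 (+/-) littermates, which still carry 1 mutant allele. Each group had 3 arrays of total RNA, here numbered in deposition order. Whether each array stands for its own mouse is not in the labels, and the p-values below measure the spread between these samples only. The labels name no Cre line and no tissue-specific promoter. The marrow-poor arrays were null 1 and heterozygous 3. In the sentences below, a pair of marrow-poor values is always null 1 followed by heterozygous 3, and 4 marrow-rich values are always null 2, null 3, heterozygous 1 and heterozygous 2.

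Bone marrow makes neutrophils, red cells, platelets, eosinophils and B cells. Neutrophil precursors load primary granules with proteases and myeloperoxidase, then secondary granules with lactoferrin and cathelicidin, and largely stop transcribing these genes before release. Erythroid precursors switch on haem synthesis, globins and red cell membrane proteins under GATA1 and KLF1. Callus at this stage joins new bone and cartilage to a returning marrow space, with injured muscle close by. In RNA from whole tissue, fewer cells of a type and less RNA per cell cannot be told apart.

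Values are the deposited log2 levels, for which 1 unit is a 2-fold step. The array medians ran from 4.55 to 4.59, and Pearson's r across probe sets was 0.989 between the marrow-poor arrays, 0.986 to 0.991 among the marrow-rich arrays and 0.970 to 0.982 between the classes. On arrays with high Xist the Y-linked transcripts, and on the others Xist, read 1.77 to 3.52, which serves as a guide to background, and where any array behind a printed fold read under 3.52, or at it, such values were raised to 3.52 and the fold is given as a lower bound. The targeted gene could not serve as a check of genotype: Cyp24a1 read 3.65, 3.20 and 3.23 in null callus and 2.71, 2.89 and 3.10 in heterozygous callus with probe set 1418866_at, close to background in both groups. Xist was high on null 1 and heterozygous 1 and at background on the other 4 arrays, so each marrow class held 1 array with Xist.

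Because the classes come from values of the same arrays, the contrast is given as a description with no p-value. For each probe set the marrow-poor array was set against the mean of the other arrays of its own genotype, and the average of these differences is the genotype-adjusted difference. A probe set was called lower or higher where the difference was 2-fold or more in the same direction in both genotypes. Of 45033 probe sets, 581 (1.29%) were lower and 367 (0.815%) were higher. Both marrow-poor values lay below all 4 marrow-rich values at 6050 probe sets (13.4%) and above them at 7271 (16.1%). Counted with 1 probe set per gene, 356 of 18191 genes (1.96%) were lower and 185 (1.02%) were higher. The larger differences were on the lower side: at 4-fold, 142 probe sets were lower and 17 higher, and at 16-fold 28 were lower and 0 higher. Within null callus 1294 probe sets were 2-fold lower and 972 higher, within heterozygous callus 931 and 859, and 27 differed 2-fold in opposite directions. The within-genotype differences correlated with r = 0.69 across 18191 genes, which are not independent replicates, and the median over all probe sets was 0.0031.

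The 6 marker genes place the contrast. S100a9, the partner of S100a8, read 10.04 and 8.56 on the marrow-poor arrays and 13.72, 13.52, 13.49 and 13.39 on the marrow-rich arrays, 18.7-fold lower. Ngp, neutrophil granule protein, read 8.16 and 7.44 against 13.23, 12.95, 12.98 and 12.87. Camp, which encodes the antimicrobial peptide cathelicidin, read 6.30 and 6.22 against 12.08, 11.87, 11.75 and 11.81. In these neutrophil genes the classes were far apart and the 4 marrow-rich arrays were close together, with an SD of 0.14 to 0.16 (n = 4). Alas2, the erythroid enzyme for the first step of haem synthesis, read 4.72 and 6.63 against 10.03, 9.14, 9.36 and 9.62, again with no overlap, and the null array was the lower of the marrow-poor pair. The bone and muscle markers were high on every array. Col1a1, the main collagen chain of bone, read 14.14 and 14.28 against 13.73, 13.89, 13.82 and 13.57 with its brighter probe set, above all marrow-rich arrays by 0.46 on average, while a dimmer probe set overlapped between classes and leaned the other way. Ckm, muscle creatine kinase, read 13.60 and 13.91 against 13.97, 14.10, 13.90 and 13.96 and overlapped, although its second probe set lay below on both marrow-poor arrays (7.49 and 8.36 against 9.36, 9.80, 8.84 and 9.42).

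**Figure D1:**
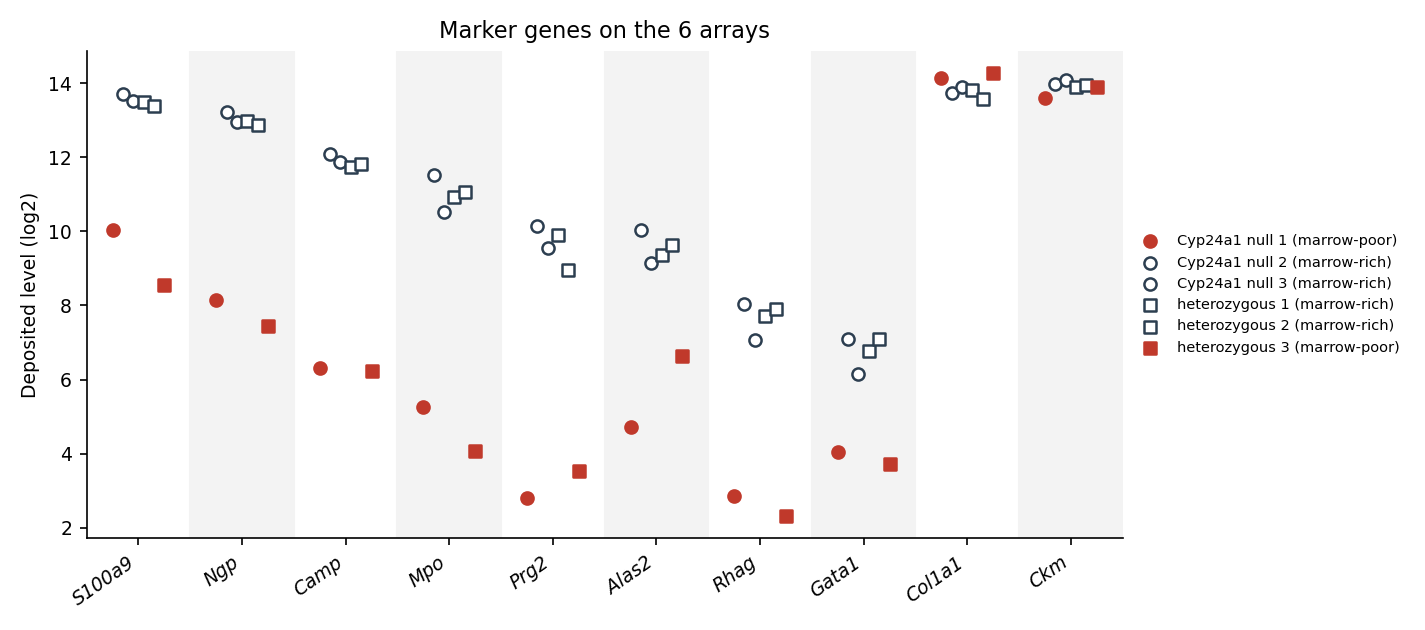
Deposited log2 level (vertical axis) of 10 marker genes on each of the 6 arrays; filled red symbols are the marrow-poor arrays, open symbols the marrow-rich ones, circles null and squares heterozygous. The neutrophil, eosinophil and erythroid genes split the classes without overlap, whereas Col1a1 and Ckm lie between 13.57 and 14.28 on all arrays.

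Genes of neutrophil primary granules were the most strongly lower of the lists: 7 of 9 measured members were called lower and 0 higher, with a median difference of -4.06 (all genes, -0.0092). Mpo, myeloperoxidase, read 5.26 and 4.06 against 11.52, 10.53, 10.92 and 11.06, an 81.4-fold difference. Elane, neutrophil elastase, read 4.36 and 4.41 against 10.72, 9.60, 10.23 and 10.37, which is 57.7-fold. Ctsg, cathepsin G, was lower by 33.9-fold and Ms4a3, a membrane protein of granulocyte precursors, by at least 15.6-fold. All 4 genes had marrow-poor values far under the lowest marrow-rich value, and within the marrow-rich class null 3 was the lowest array for each of them. Gfi1, a transcriptional repressor needed for granulocyte maturation, was at background on both marrow-poor arrays and at least 2.12-fold lower.

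Secondary and tertiary granule genes followed the same pattern, with 14 of 19 members lower, 0 higher and a median of -3.53. Ltf, lactoferrin, read 6.01 and 6.31 against 12.22, 11.73, 11.82 and 11.54, which is 50.9-fold lower. Cd177, a surface glycoprotein stored in these granules, read 4.07 and 3.75 against 9.60, 9.09, 9.13 and 9.16. Olfm4, olfactomedin 4 of a neutrophil subset, was at background on both marrow-poor arrays and at least 14.3-fold lower. The marrow-rich arrays lay within 1 unit of each other for each of these 3 genes. Cytosolic and surface genes of neutrophils, which mature cells keep transcribing, showed smaller differences: 4 of 15 were lower, 0 higher and the median was -0.72. Beside S100a9, the others called were Trem3 (8.87-fold), the formyl peptide receptor Fpr2 (6.99-fold) and Wfdc21 (3.26-fold). Csf3r, the receptor for the growth factor G-CSF, read 7.57 and 6.58 against 8.42, 8.20, 8.19 and 7.92, below all marrow-rich arrays without reaching 2-fold in null callus. Over the 3 neutrophil lists, 25 of 43 measured genes were lower and 0 higher.

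Promoters of the neutrophil genes are shown because granule genes are known targets of C/EBP factors and PU.1. Sequences are the 250 bases upstream of the annotated start from the RefSeq table of mouse promoters on GRCm38.p6, since the deposited table itself names no build. Searches covered 250 bases before to 50 after the start on both strands. Capitals mark TTGCNNAA, a C/EBP form, and GAGGAA, a PU.1 form, read on either strand. Ltf (chr9:111019042-111019291, plus strand), Ngp (chr9:110419558-110419807, plus strand) and Mpo (chr11:87793534-87793783, plus strand) follow, each 5′ to 3′ in the direction of the gene.
Ltf: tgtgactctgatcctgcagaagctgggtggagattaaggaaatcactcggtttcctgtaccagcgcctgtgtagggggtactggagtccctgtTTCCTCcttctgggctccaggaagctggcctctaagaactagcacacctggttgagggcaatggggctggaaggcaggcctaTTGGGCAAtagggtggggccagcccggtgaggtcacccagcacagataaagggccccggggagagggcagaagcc
Ngp: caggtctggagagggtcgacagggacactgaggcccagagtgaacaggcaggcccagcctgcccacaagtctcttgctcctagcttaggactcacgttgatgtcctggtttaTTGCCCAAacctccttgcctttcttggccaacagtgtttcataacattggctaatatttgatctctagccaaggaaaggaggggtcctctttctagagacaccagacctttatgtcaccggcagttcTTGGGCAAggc
Mpo: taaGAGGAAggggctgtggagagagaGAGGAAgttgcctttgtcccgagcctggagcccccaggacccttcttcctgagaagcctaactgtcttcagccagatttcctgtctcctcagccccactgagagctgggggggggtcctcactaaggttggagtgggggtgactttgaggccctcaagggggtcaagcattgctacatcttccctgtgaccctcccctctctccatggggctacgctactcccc

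Of 25 neutrophil genes called lower, 23 had a promoter in the table. TTGCNNAA was present in 8 of 23 (34.8%) and in 10.8% of all 27025 promoters, and GAGGAA in 14 of 23 (60.9%) and in 28.3% of all. Ltf holds 1 match of each kind upstream, Ngp 2 of the first and 0 of the second, and Mpo 0 of the first and 2 of the second. A match describes the letters in this window and not a bound site.

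Erythroid genes formed the other large block, with 20 of 46 measured members of 4 lists lower and 0 higher. Transcription factors and nuclear regulators of the lineage had the largest median, -2.62, with 8 of 13 lower. Hemgn, a nuclear protein of erythroid precursors, read 2.65 and 3.09 against 9.37, 8.16, 8.95 and 8.87, and was at least 39.8-fold lower because both marrow-poor arrays were at background. Klf1, the master factor of the globin programme, read 3.36 and 3.56 against 8.50, 7.30, 8.42 and 8.36, at least 24.3-fold lower, with null 1 at background. Nfe2, which drives globin and platelet genes, was 24.9-fold lower, Trim10 13.3-fold, Gata1 7.49-fold and Tal1 6.28-fold. Gata1 illustrates the levels: 4.04 and 3.71 against 7.10, 6.16, 6.76 and 7.10. In all of these genes null 3 was the lowest of the marrow-rich arrays and still lay above both marrow-poor arrays.

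Red cell membrane genes were lower in 8 of 15 cases, with 0 higher and a median of -1.83. Rhag, the Rh-associated glycoprotein, read 2.85 and 2.31 against 8.04, 7.07, 7.72 and 7.91, at least 17.9-fold lower. Ermap, an erythroid adhesion protein, was 18.9-fold lower, the blood group protein Rhd 9.96-fold and Kel, the Kell antigen, at least 9.57-fold. Haem synthesis and iron uptake differed less: 3 of 15 were lower, 0 higher and the median was -0.63. After Alas2 (14.5-fold) came Slc25a37, the mitochondrial iron importer mitoferrin, at 5.71-fold and Cpox, a later enzyme of the haem pathway, at 2.51-fold. Tfrc, the transferrin receptor that most dividing cells use, read 9.62 and 9.96 against 10.67, 10.59, 10.67 and 10.68, below the marrow-rich arrays by 0.87 but not 2-fold in heterozygous callus. Only 3 of 7 globin-related genes sought had a probe set with 1 symbol, and 1 of these was informative: Hbb-b2, an adult beta globin, read 3.39 and 4.21 against 7.37, 6.95, 6.95 and 7.47, at least 9.98-fold lower, and 1 of its 2 probe sets leaned this way. The probe sets listed for Hba-a1 and Hba-a2 read 2.46 to 3.70 on all arrays, at or near background, and so say nothing of alpha globin.

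The promoters of 3 erythroid genes follow, chosen because each carries the forms recognised by GATA and KLF factors within 250 bases of the start. Capitals mark the GATA form, spelled AGATAA, on either strand. The KLF form, spelled CCACCC, is marked in the same way. They are Alas2 (chrX:150547167-150547416, plus strand), Kel (chr6:41704326-41704575, minus strand) and Trim10 (chr17:36869324-36869573, plus strand), again from RefSeq on GRCm38.p6.
Alas2: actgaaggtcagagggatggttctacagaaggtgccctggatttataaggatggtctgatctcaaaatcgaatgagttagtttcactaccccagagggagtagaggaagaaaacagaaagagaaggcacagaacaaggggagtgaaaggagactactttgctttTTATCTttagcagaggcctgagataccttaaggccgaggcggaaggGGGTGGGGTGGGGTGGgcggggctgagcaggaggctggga
Kel: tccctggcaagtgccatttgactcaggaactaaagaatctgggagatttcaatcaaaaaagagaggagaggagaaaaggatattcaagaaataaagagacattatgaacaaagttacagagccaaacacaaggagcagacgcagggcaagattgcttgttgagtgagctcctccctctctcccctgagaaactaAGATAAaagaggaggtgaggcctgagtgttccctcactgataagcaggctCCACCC
Trim10: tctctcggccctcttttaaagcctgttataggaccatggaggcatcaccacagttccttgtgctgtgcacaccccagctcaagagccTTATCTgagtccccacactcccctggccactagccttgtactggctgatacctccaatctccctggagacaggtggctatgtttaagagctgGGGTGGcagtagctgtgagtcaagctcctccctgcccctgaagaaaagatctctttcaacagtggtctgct

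Of 20 erythroid genes called lower, 16 had a promoter in the table, and AGATAA was present in 10 of them (62.5%) against 11.4% of all promoters. CCACCC was present in 8 of 16 (50%) against 30.9% of all. The run of capitals near the start of Alas2 is 3 overlapping matches of the KLF form. Of the neutrophil forms, TTGCNNAA was present in 12.5% and GAGGAA in 37.5% of the 16 promoters. In turn AGATAA was present in 21.7% of the 23 neutrophil promoters. CCACCC was present in 11 of those 23 (47.8%) and in 50% of 6 promoters of higher muscle regeneration genes. Hemgn had neither erythroid form in its upstream 250 bases and 1 match of AGATAA in the 50 bases after the start.

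Platelet, eosinophil, basophil and some B cell genes were among those called lower. Megakaryocyte and platelet genes were lower in 7 of 13 cases, with 0 higher and a median of -1.66. Tubb1, the beta tubulin of platelets, read 3.68 and 4.02 against 8.92, 7.24, 8.10 and 7.98, which is 18.5-fold. Clec1b, a platelet activating receptor, was 7.14-fold and Gp1bb, part of the receptor for von Willebrand factor, 5.72-fold lower. The platelet chemokines did not follow one pattern. Ppbp read 8.55 on null 1 and 4.89 on heterozygous 3 against 10.99, 9.07, 10.32 and 10.04, below on both, with a difference of -1.48 within null and -5.29 within heterozygous callus. Pf4 read 11.60 on null 1, above every other array (9.82 to 10.39).

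Prg2, the major basic protein of eosinophil granules, read 2.79 and 3.52 against 10.15, 9.56, 9.91 and 8.95, at least 69.4-fold lower. Epx, eosinophil peroxidase, read 3.62 and 3.55 against 9.20, 8.31, 9.12 and 7.87, which is 32.9-fold. Mcpt8, a basophil protease, was at least 7.08-fold and Prg3, a further eosinophil granule protein, 3.03-fold lower, giving 4 of 11 members of the eosinophil, basophil and mast cell list lower and 0 higher. Cma1, a protease of connective tissue mast cells, overlapped between classes, with 7.17 and 6.54 against 6.42 to 6.85.

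Early B cell genes were lower in 4 of 20 cases and 0 were higher, against 1.96% lower and 1.02% higher over all genes. The list median was -0.12, but 9 of the 20 were at background on both marrow-poor arrays and 5 of these on all arrays. Ms4a1, the B cell surface protein CD20, was at least 2.24-fold lower and Cd79a, a chain of the B cell receptor complex, read 5.43 and 5.10 against 7.16, 6.00, 5.96 and 6.28. Jchain, which links antibody molecules, was the only 1 of 8 plasma cell genes called, at 9.69-fold, with 4.41 and 6.56 against 9.95, 7.28, 9.08 and 8.72. Of 14 progenitor genes only Myb, a factor of dividing blood precursors, was called: 4.33 and 4.22 against 8.14, 7.30, 7.66 and 7.58, which is 10.5-fold. Angpt1 and Hlf also lay below all marrow-rich arrays, by 0.73 and 0.79. T and NK cell genes had 0 of 19 called in either direction, against 1.96% lower and 1.02% higher over all genes, and a median of 0.08.

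Over the 12 marrow lists together, 62 of 155 measured genes (40%) were lower and 0 were higher. Of the 356 genes called lower, 77 stood on any list, and 51 were at background on both marrow-poor arrays. The 15 lower genes with the largest difference in the genotype where it was smaller were Prg2, Hemgn, Elane, Mpo, Camp, Ltf, Cd177, Ctsg, Epx, Ngp, Ctse, Rhag, Olfm4, Nfe2 and Klf1. Ctse, cathepsin E, read 5.05 and 4.36 against 10.42, 9.17, 10.17 and 10.15. Of its 2 probe sets, 2 leaned this way and 1 was called lower.

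**Figure D2:**
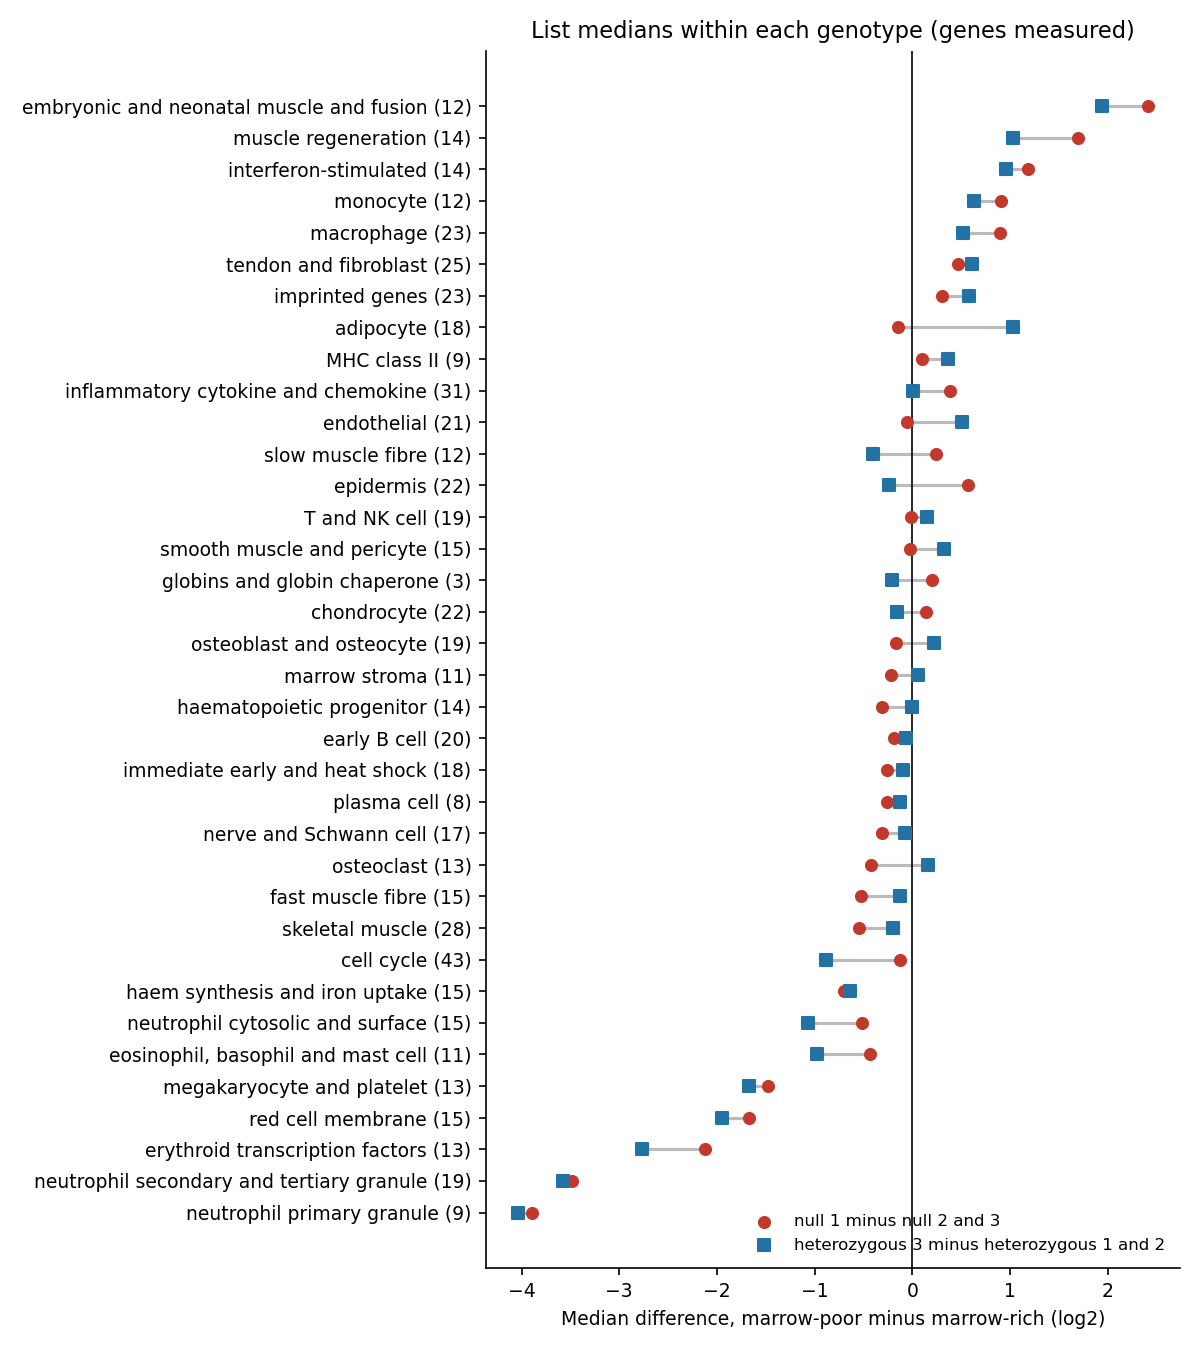
Median difference over the measured genes of each list (horizontal axis, log2, marrow-poor minus marrow-rich) within null callus (red circles) and within heterozygous callus (blue squares), with the number of genes in brackets. Granule, platelet and erythroid lists other than globins lie at the low end in both genotypes. The globin list (3 genes) has medians of 0.21 and -0.21. Muscle fusion and regeneration lists lie at the high end, and the adipocyte medians are -0.15 and 1.03.

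Not every blood-derived cell type was lower. Of 23 macrophage genes, 6 were higher and 0 lower, and the median was 0.64. Gpnmb, a glycoprotein of lipid-laden macrophages, read 9.88 and 10.03 against 7.86, 8.79, 7.98 and 8.08, which is 3.42-fold higher. Trem2, a receptor for lipids and debris, read 8.46 and 8.03 against 6.36, 7.63, 6.43 and 6.27. The complement chains C1qa, C1qb and C1qc were 2.41-fold, 2.76-fold and 2.41-fold higher, and the protease Ctss 2.43-fold. Lyve1, found on resident macrophages and lymphatic vessels, lay below all marrow-rich arrays, with 5.50 and 4.41 against 6.45, 6.28, 5.75 and 5.59. Monocyte genes had 3 of 12 higher: Ms4a6d (3.36-fold), the Fc receptor Fcgr1 (3.22-fold) and the fractalkine receptor Cx3cr1 (2.61-fold). Nr4a1, which is needed for patrolling monocytes and is also an immediate early gene, was lower, with 6.90 and 6.61 against 9.14, 9.24, 8.06 and 8.86. Among the marrow-rich arrays null 3 was the highest for Gpnmb, Trem2 and each C1q chain, nearest to the marrow-poor pair.

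Interferon-stimulated genes, the antiviral response programme, were higher in 7 of 14 cases with 1 lower and a median of 1.06. Ifit3, an interferon-induced restrictor of viral RNA, read 8.48 and 8.12 against 5.83, 7.31, 7.54 and 5.83, 3.19-fold higher. Ifit1 read 6.99 and 6.40 against 4.11, 5.50, 6.17 and 4.27, and Irf7, a factor that amplifies the response, 8.14 and 7.94 against 6.40, 7.03, 7.36 and 6.10. Rtp4, Oasl2, Usp18 and Ifit2 were 2.23-fold to 3.01-fold higher. The marrow-rich arrays themselves spread widely for these genes, with null 3 and heterozygous 1 high and null 2 and heterozygous 2 low, and only a short gap separated heterozygous 1 from heterozygous 3 for Ifit1. Rsad2, viperin, went the other way on 3 of 3 probe sets: 7.91 and 7.68 against 9.83, 9.23, 9.43 and 9.46.

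Promoters of Ifit1 (chr19:34640639-34640888, plus strand) and Ifit3 (chr19:34583279-34583528, plus strand) are shown for the interferon response element, with GAAANNGAA on either strand in capitals. RefSeq on GRCm38.p6 is again the source.
Ifit1: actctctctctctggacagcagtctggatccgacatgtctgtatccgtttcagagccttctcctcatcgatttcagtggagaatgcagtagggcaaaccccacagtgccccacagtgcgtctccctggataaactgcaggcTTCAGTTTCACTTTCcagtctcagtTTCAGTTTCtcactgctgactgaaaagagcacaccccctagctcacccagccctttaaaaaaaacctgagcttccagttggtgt
Ifit3: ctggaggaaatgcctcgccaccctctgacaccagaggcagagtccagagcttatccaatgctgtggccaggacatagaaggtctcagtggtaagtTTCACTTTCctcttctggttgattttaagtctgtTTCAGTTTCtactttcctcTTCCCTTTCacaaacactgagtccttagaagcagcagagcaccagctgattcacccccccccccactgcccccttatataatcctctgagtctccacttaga

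Both carry 3 matches, and 2 of the 5 higher interferon genes with a promoter in the table (40%) had any, against 8.57% of all promoters. In the same 5 promoters AGATAA and GAGGAA were also present in 40% and CCACCC in 60%. Among chemokines and cytokines 3 of 31 were higher, Ccl3 (at least 3.32-fold), Ccl2 (2.77-fold) and Cxcl10 (2.26-fold), which attract monocytes and T cells. The MHC class II list had 0 of 9 called, which says little where 1.96% of all genes were lower and 1.02% higher.

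**Figure D3:**
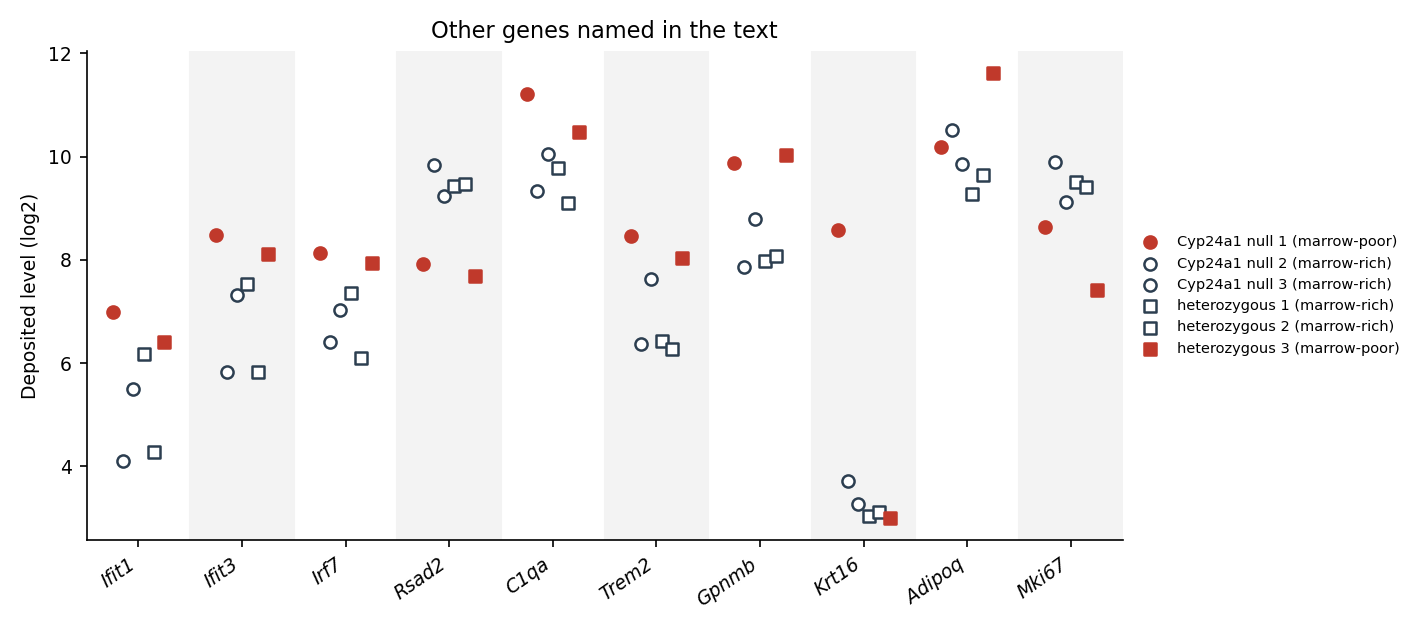
Deposited log2 level (vertical axis) of interferon, macrophage, keratin, fat and proliferation genes on each array; filled red symbols are marrow-poor, circles null and squares heterozygous. Ifit1, Ifit3, Irf7, C1qa, Trem2 and Gpnmb are higher and Rsad2 lower on both marrow-poor arrays, Krt16 is high on null 1 only and Adipoq highest on heterozygous 3.

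Genes of forming muscle stood among those called higher on the marrow-poor arrays. In muscle repair, satellite cells marked by Pax7 turn on Myf5, Myod1 and Myog, fuse by means of myomaker (Mymk) and myomixer (Mymx), and first make embryonic and neonatal myosins before adult forms replace them. Mymk read 10.92 and 9.86 against 6.53, 7.99, 7.73 and 6.21, 9.68-fold higher and the largest difference among higher genes by the rule used. Mymx read 8.05 and 7.09 against 3.94, 5.45, 4.89 and 3.81, which is 8.28-fold. Myog, myogenin, read 10.33 and 10.10 against 7.14, 7.85, 8.90 and 7.21. For all 3 genes the marrow-rich arrays null 3 and heterozygous 1 were higher than null 2 and heterozygous 2, and none reached the marrow-poor pair.

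Of 14 muscle regeneration genes, 7 were higher and 0 lower, with a median of 1.49. Myh3, embryonic myosin, read 12.63 and 11.97 against 10.21, 10.35, 10.58 and 9.96, and Myh8, neonatal myosin, 12.05 and 11.98 against 9.33, 10.84, 9.94 and 8.49. Actc1, cardiac actin that is also made in young muscle, was 5.92-fold higher, Myf5 3.91-fold and Pax7 2.28-fold. Myod1, Myf6, Musk and Ncam1 overlapped between classes. Myod1 read 9.34 and 10.10 against 8.63, 7.79, 9.89 and 9.61. Chrng, the fetal subunit of the acetylcholine receptor, was above all marrow-rich arrays but by 2.92 in null and 0.67 in heterozygous callus. In a list of embryonic, neonatal and fusion genes compiled after the values were seen, 8 of 12 were higher, including the atrial light chain Myl4 (4.62-fold) and the cardiac troponin Tnnt2 (4.54-fold). None of the 6 higher regeneration genes with a promoter in the table held the E-box CAGCTG in its window (0%, against 16.1% of all promoters), which says only that these letters are not there.

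Of 28 skeletal muscle genes, which the adult fibre uses, 4 were lower, 0 were higher and the median was -0.34. Both marrow-poor values lay below all marrow-rich arrays for 19 of 28, against 2997 of all 18191 genes. Myh7, the slow myosin, read 7.56 and 6.75 against 10.88, 8.99, 11.90 and 11.56, and Myl2, the slow regulatory light chain, 7.46 and 5.98 against 11.05, 9.03, 11.13 and 11.32. These are 12.8-fold and 15.1-fold lower, with null 3 the lowest marrow-rich array for both. Myh2, the fast oxidative IIA myosin, read 11.16 and 11.01 against 13.53, 12.46, 13.47 and 13.16, and Mybpc2, a fast myosin binding protein, was 4.19-fold lower. Other fast fibre genes differed less: Myh4, the IIB myosin, read 13.26 and 13.62 against 13.74, 13.88, 13.63 and 13.82 with its brighter probe set. Its dimmer probe set, 1458368_at, read 8.14 and 10.19 against 10.33, 10.68, 10.02 and 9.78, so only null 1 was low. Acta1, skeletal actin, read 14.40 or more on all arrays, near the top of the scale.

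Slow fibre genes were split. In a list of 12 slow fibre genes compiled after the values were seen, 3 were lower (Myl2, Myh7 and the light chain Myl3 at 4.63-fold) and 1 was higher (Casq2, the calcium store protein of slow and cardiac muscle, at 3.29-fold). The slow troponins did not go with slow myosin. Tnni1 read 12.23 on null 1 against 10.47 and 10.13 on the other null arrays, but 11.43 on heterozygous 3 against 11.46 and 10.80. Tnnt1 and Tnnc1 were likewise higher on null 1 by 1.47 and 1.66, and differed by -0.20 and -0.60 in heterozygous callus. Of 15 fast fibre genes compiled in the same way, 3 were lower, Myh2, Mybpc2 and Myoz3, and 15 of 15 differences were negative. Over all genes, 9406 of 18191 differences were negative.

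**Figure D4:**
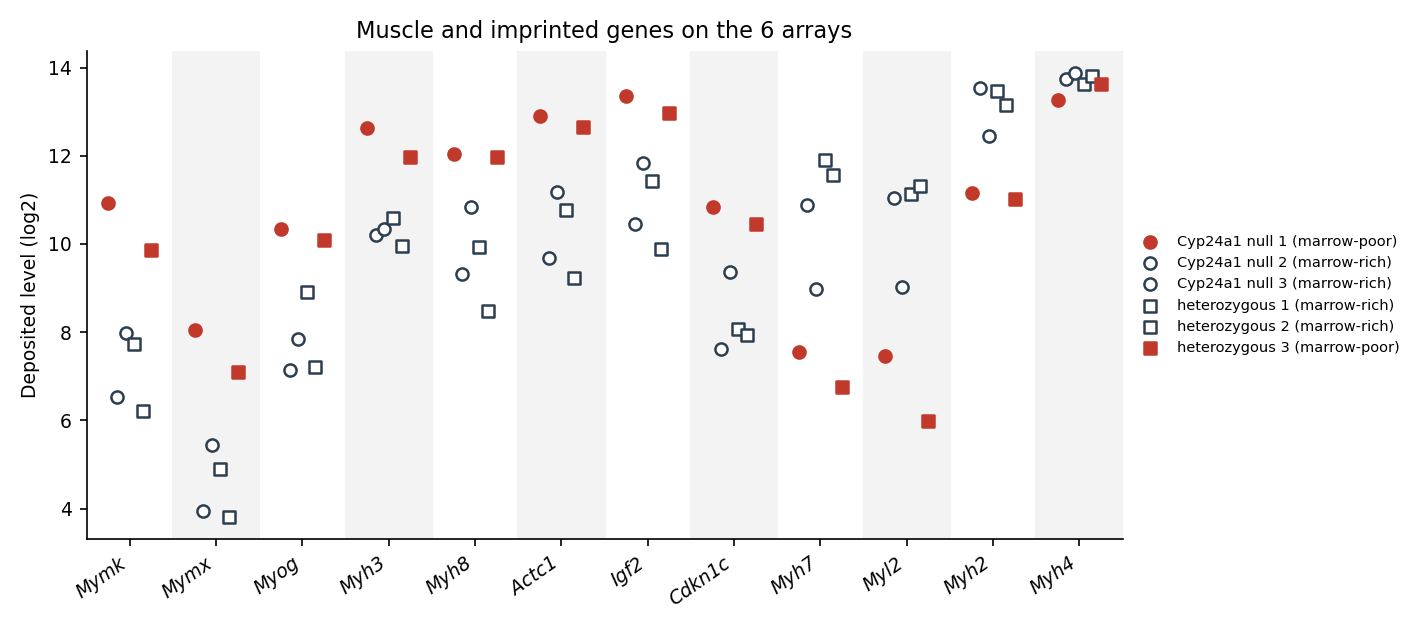
Deposited log2 level (vertical axis) of muscle and imprinted genes on each array; filled red symbols are marrow-poor, circles null and squares heterozygous. Mymk to Cdkn1c are higher and Myh7, Myl2 and Myh2 lower on both marrow-poor arrays, while Myh4, by its brighter probe set, stays between 13.26 and 13.88.

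Imprinted growth genes stood among the highest differences. Igf2, insulin-like growth factor 2, read 13.35 and 12.98 against 10.45, 11.83, 11.42 and 9.88, 4.83-fold higher on 2 of 2 probe sets. Cdkn1c, an inhibitor of the cell cycle that is kept in satellite cells and differentiating muscle, read 10.83 and 10.46 against 7.61, 9.36, 8.07 and 7.93. Peg3 was 5.21-fold, Mest 5.39-fold and Dlk1 4.72-fold higher. Of 5 Peg3 probe sets, 4 leaned this way and 3 were called higher. Of 2 Dlk1 probe sets, 2 leaned this way and 1 was called higher. All 5 of these growth genes are expressed from 1 parental allele. With the probe set used, all were separated between the classes, with null 3 the highest marrow-rich array except for Peg3. In a list of 25 imprinted genes compiled after these values were seen, 23 were measured, 7 were higher (also Plagl1 at 2.92-fold and Grb10 at 2.82-fold) and 0 lower, and 6 were at background on all arrays. The remaining genes of the 15 highest were Nrk, a kinase (6.91-fold), Pnmal2 (5.68-fold), Vash2, a regulator of vessel growth (4.47-fold), the collagen Col26a1 (4.34-fold) and Fndc3c1 (4.97-fold). Of the 185 genes called higher, 40 stood on any list.

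The tendon and fibroblast list leaned upward, while the bone and cartilage lists had medians of -0.01. Of 25 tendon and fibroblast genes 1 was called, Col5a1, a collagen that starts fibrils, with 11.38 and 10.97 against 9.86, 10.38, 10.00 and 9.45. The list median was 0.54 (0.46 in null and 0.61 in heterozygous callus), and 23 of 25 differences were positive, against 8785 of all 18191 genes. Both marrow-poor values lay above all marrow-rich arrays for 11 of 25, against 2977 of all genes. Col6a3 (2.06-fold), Col6a1 (2.05-fold) and Postn (2.03-fold), proteins of the matrix around cells, were above all marrow-rich arrays without 2-fold in null callus. The osteoblast and osteocyte list had 0 of 19 called and a median of -0.01 (-0.16 in null and 0.22 in heterozygous callus). The chondrocyte list had 0 of 22 called and the same median (0.14 and -0.16). With 1.96% of all genes called lower and 1.02% higher, 0 calls in such short lists say little. Mepe and Dmp1, made by osteocytes, read 5.45 and 6.39 against 6.23 to 8.07 and 8.03 and 9.12 against 8.41 to 9.83, overlapping. Col10a1, the collagen of hypertrophic cartilage, read 3.11 on null 1 and 4.44 on null 2 but 7.71 on null 3 and 6.74 to 7.79 on the heterozygous arrays, so its low values crossed the marrow classes. Of 13 osteoclast genes only Itgb3, the beta 3 integrin that platelets also carry, was lower, with 5.24 and 5.62 against 8.06, 7.06, 7.56 and 7.56. Acp5, the osteoclast phosphatase TRAP, read 8.43 and 10.12 against 9.78 to 10.64.

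The marrow-poor arrays also differed from each other. The interaction test asks whether the marrow contrast differs between null and heterozygous callus; the lone marrow-poor array of each genotype was assumed to vary like the others, and limma with Benjamini-Hochberg adjustment over 45033 probe sets passed 0 (0%) at an adjusted p of 0.05, with 2824 (6.27%) at an unadjusted p under 0.05. This test rests on 1 marrow-poor array per genotype. With an intensity trend and a robust prior 1 passed. The lowest adjusted p belonged to Sprr1b, a cornified envelope protein of stressed skin. It read 7.53 on null 1 and 2.54 to 2.97, all at background, on the other 5 arrays. The fitted difference between the contrasts was 4.58 (SE 0.21, limma adjusted p = 0.0827), and 4.01 with values raised to 3.52. Krt16, a keratin of wounded skin, read 8.57 on null 1 and 3.00 to 3.71 elsewhere, at background on 4 of those 5 arrays (5.16, SE 0.31, limma adjusted p = 0.171, and 4.96 with values raised to 3.52), and Krt6a 10.20 on null 1 and 3.87 to 6.39 elsewhere. Over 22 epidermis genes the median was 0.58 in null and -0.24 in heterozygous callus, and 0 were called. The marrow-rich arrays also spread widely: against their average, the mean of this list was 0.90, -0.04, -1.34 and 0.48 on them. On null 1 it was 1.46 and on heterozygous 3 -0.70. Marco, a scavenger receptor of macrophages, also stood high on null 1, at 6.57 against 3.19 to 4.45. On the lower side, Myh4 read 8.14 on null 1 and 9.78 to 10.68 elsewhere with probe set 1458368_at (-2.65, SE 0.31, limma adjusted p = 0.781).

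Leaving out heterozygous 2 gave large fitted interactions for 2 probe sets of Xist (15.6 and 12.5) and 1 of Eif2s3y (-11.9). A further 3 probe sets, to which no single symbol was assigned, had -13.7, -11.3 and -11.8, like Eif2s3y in sign and size. Heterozygous 1 was then the only marrow-rich heterozygous array, and Xist was high on it and on null 1.

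Several lists separated heterozygous 3 from null 1 in value, among them fat, proliferation, and cytosolic and surface neutrophil genes. No gene passed. The adipocyte median was -0.15 in null and 1.03 in heterozygous callus over 18 genes. Adipoq, adiponectin, read 10.18 and 11.62 against 10.51, 9.85, 9.27 and 9.65, so that null 1 lay among the marrow-rich arrays and heterozygous 3 above them. Cell cycle genes had 2 of 43 lower, Cdc6 and Ube2c, and 0 higher, against 1.96% lower and 1.02% higher over all genes. The cell cycle median was -0.12 in null and -0.88 in heterozygous callus. Mki67, the proliferation antigen, read 8.64 and 7.41 against 9.90, 9.12, 9.51 and 9.42. The median of neutrophil primary granule genes was -3.90 in null and -4.04 in heterozygous callus. For secondary and tertiary granule genes it was -3.49 and -3.58, and for cytosolic and surface neutrophil genes -0.51 and -1.07. Erythroid transcription factors had medians of -2.12 and -2.76, and skeletal muscle genes of -0.54 and -0.20. Alas2 differed by -4.86 within null and -2.86 within heterozygous callus, and S100a9 by -3.58 and -4.87. The marrow lists were low on the same 2 arrays on which the muscle, imprinted, macrophage and interferon genes were high, and the part of one in the other was not tested.

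**Figure D5:**
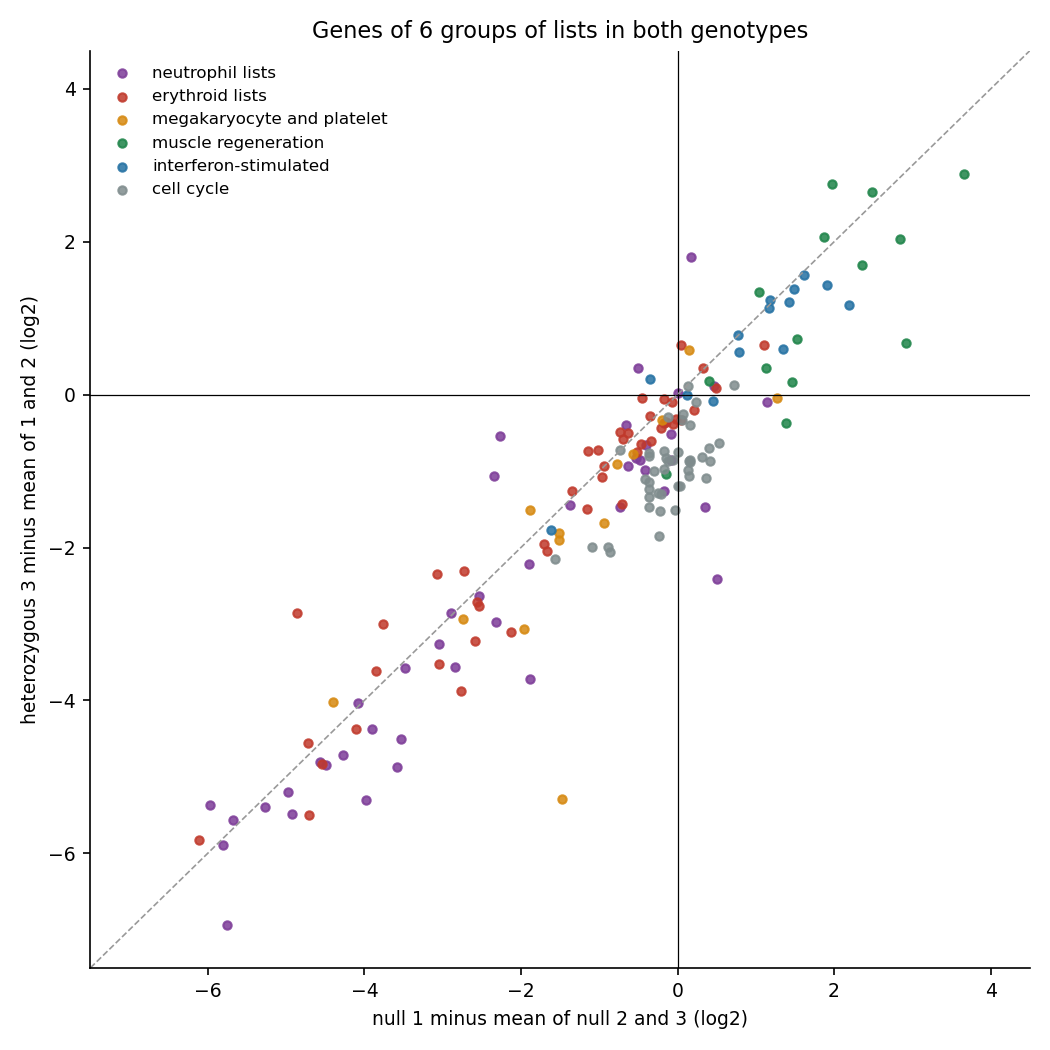
Each point is a gene of the named lists, with its difference in null callus (null 1 minus the mean of null 2 and 3) on the horizontal axis and in heterozygous callus (heterozygous 3 minus the mean of 1 and 2) on the vertical axis, both log2; the dashed line marks equal differences. Neutrophil and erythroid genes run down the line, the lowest to below -5. Muscle regeneration and interferon genes lie mostly at the upper right, with Rsad2 at the lower left, and cell cycle genes lie mostly below the line.

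The comparison the study was built for, null against heterozygous callus, was fitted with the marrow class as a term. In limma 1 of 45033 probe sets passed (0.00222%), with 3283 at an unadjusted p under 0.05, of which 1741 were higher and 1542 lower in null callus. Without the class term 0 passed and 1661 had an unadjusted p under 0.05. The passing probe set, 1447360_at, was assigned no single gene symbol. It read 3.39, 2.63 and 2.29 on the null arrays and 5.83, 5.90 and 6.50 on the heterozygous arrays, a fitted difference of -3.30 (SE 0.14, limma adjusted p = 0.00481), and was lower in 3 of 3 null arrays. All 3 null values were at background, and with values raised to 3.52 the mean difference was -2.55. Leaving out each array in turn gave it a limma adjusted p of 0.0180 to 0.174, under 0.05 only without null 3. It was left out by a filter at the median level. The epithelial keratin Krt8 came next among lower genes, with 8.02, 7.61 and 6.79 on the null arrays and 10.27, 10.21 and 9.94 on the heterozygous arrays (-2.66, SE 0.29, limma adjusted p = 0.484). Its partner Krt18 differed by -2.73 (SE 0.34) with the same adjusted p. On the higher side, the chemokine Cxcl1 read 5.76, 5.76 and 5.49 on the null arrays and 4.61, 4.11 and 4.17 on the heterozygous arrays (1.37, SE 0.17, limma adjusted p = 0.484). None of these 3 named genes passed the threshold.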

How the data were processed

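Callus RNA of 6 samples was measured on Affymetrix GeneChip mouse expression arrays with biotin label, per the labels' protocols. The deposited table holds log2 values, as their range shows. Not given in the sources used here are the authors' software, background correction and normalisation. The array medians are nearly equal, so values are relative to the rest of the array. After removal of 64 control probe sets and 4 of S100a8 and Slc4a1, 45033 were analysed. Gene symbols came from the platform annotation (34945 probe sets with 1 symbol, 932 with several, 9160 with none), and a gene is represented by its probe set with the highest mean.

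Classes, members and gene lists were chosen with earlier results of these data known. The 4 lists of imprinted, slow fibre, fast fibre and embryonic muscle genes, and the interferon and E-box motifs, were added after values were seen. Of 598 members of 32 lists, 549 were measured. Named genes were the markers, up to 4 members per list with the largest difference plus members that show a list's range, up to 15 in each direction over all genes above the median level, and up to 4 in each direction per test; Cyp24a1 and Xist were added as checks. Genotype (with the class as a term) and the interaction were tested with limma 3.58.1 in R 4.3.3, two-sided, adjusted by Benjamini-Hochberg, after a test on simulated data. Promoters came from RefSeq on GRCm38.p6. Alternatives were other normalisations, folds, filters, priors and array weights, and leaving out each array. The number of arrays limits precision.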

Additional observations from a re-analysis of the deposited data

How the results depend on the processing

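Classes of 2 and 4 arrays, with 1 marrow-poor array per genotype, limit every statement above, and no chance test was applied to a contrast that its own values defined. Quantile, cyclic loess and median-centred values left the lower calls at 594, 622 and 598 and the higher calls at 347, 323 and 351, against 581 and 367. A 1.5-fold rule gave 1413 lower and 1522 higher, a 4-fold rule 142 and 17, and 1 probe set per gene 356 and 185. Class means without the genotype term, with no overlap, gave 810 lower and 598 higher. Leaving out arrays gave 453 to 1294 lower and 287 to 972 higher. The highest counts came without a marrow-poor array, where the call rests on 1 genotype: 931 lower and 859 higher without null 1, and 1294 and 972 without heterozygous 3.

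For genotype with the class term, 0 probe sets passed above the median level, with the 4 marrow-rich arrays alone and without the class term, and 0 to 1 when arrays were left out. At an unadjusted p under 0.05 the 3283 became 1961 above the median level, 1661 without the class term and 2372 to 3486 when arrays were left out. For the interaction, 1 passed at an adjusted p of 0.1 and 1 with an intensity trend and robust prior, and 0 to 6 when arrays were left out; 1492 had an unadjusted p under 0.05 above the median level and 1938 to 3122 when arrays were left out. The interaction cannot be fitted without a marrow-poor array. Among list medians, 365 values moved by less than the spread between replicates and 67 by more, most of them where the value rested on 1 genotype. The cause of these changes was not tested. Of the genes followed, Ckm differed by -0.23, and by -0.15 after quantile normalisation and -0.02 in heterozygous callus alone. No paired analysis was possible because the labels carry no replicate numbers.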

Other observations

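Few genes of the vessel, stroma, smooth muscle and nerve lists were called. Over all genes 1.96% were lower and 1.02% higher, so single calls in such short lists say little. The endothelial median was -0.05 in null and 0.51 in heterozygous callus. Stab2, the scavenger receptor of marrow and liver sinusoids, was the only 1 of 21 endothelial genes called, with 4.19 and 3.87 on the marrow-poor arrays against 6.24, 5.66, 5.94 and 6.22. Flt1, a VEGF receptor, lay below all marrow-rich arrays with the probe set used, by 0.97 on average, and 4 of 4 probe sets leaned this way. Lepr, the leptin receptor that marks marrow stromal cells, was at background on both marrow-poor arrays (2.83 and 3.48 against 5.84, 5.32, 5.15 and 5.13), at least 3.57-fold lower with this probe set, and 3 of its 4 probe sets leaned this way. It was the only 1 of 11 stroma genes called. Acta2, smooth muscle actin, was the only 1 of 15 smooth muscle and pericyte genes called, with 11.88 and 11.18 against 10.40, 10.57, 9.75 and 10.01.

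Mbp, myelin basic protein, read 4.84 and 5.43 against 9.79 and 9.25 on the null and 7.31 and 7.60 on the heterozygous marrow-rich arrays. All 8 of its probe sets leaned the same way. The difference was -4.68 within null and -2.02 within heterozygous callus (limma interaction adjusted p = 0.781). Erbb3, a neuregulin receptor of Schwann cells, was 2.16-fold higher, and 15 of 17 nerve and Schwann cell genes were not called. Among 18 immediate early and heat shock genes, Hspa1b was lower (6.27 and 5.80 against 8.25, 6.61, 6.94 and 7.17), and the list median was -0.13. Efhd1, named by the genotype test at a limma adjusted p of 0.484, was also lower by class, with 4.84 and 3.89 against 6.04, 6.38, 5.12 and 5.11.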
